A study of Mus musculus with 3 samples.

Results

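The Slc25 genes encode the mitochondrial carrier family, transport proteins that sit mostly in the inner mitochondrial membrane. Members were taken from the deposited value table as every probe set whose platform annotation gives 1 gene symbol that starts with Slc25a, with 1 probe set kept per gene, the one with the highest mean over the 3 arrays. This gave 44 genes from 93 probe sets, out of 18193 genes with a value. The arrays, 1 per group, measured RNA from 3 cell populations sorted from spleens of adult mice. These were monocytes that did not express Spic (CD11b+ Ly6C+ GFP-), monocytes that did (CD11b+ Ly6C+ GFP+), and red pulp macrophages (bright for GFP and for the macrophage antigen that Adgre1 encodes), the splenic cells that take up aged red blood cells and recycle heme iron. All 3 groups had the genotype Spic(igfp/+), so every animal carried 1 reporter allele of Spic, which encodes a transcription factor that red pulp macrophages need, and no group without that allele was measured. The series asks how macrophages that recycle iron arise from monocytes. The sources used here do not say how many mice were pooled per sort.

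A mitochondrial carrier is a small protein that binds its substrate from one side of the inner membrane and opens to the other, usually exchanging 1 solute for another. The family moves ATP and ADP, phosphate, amino acids, carboxylic acids, nucleotides, cofactors and, through the mitoferrins, iron. In cells that make heme, carriers bring iron and glycine into the matrix, where the first and last steps of heme synthesis take place. In macrophages and monocytes they link glycolysis in the cytosol to respiration in the matrix.

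Values are log2 expression per probe set, so a difference of 1 is 2-fold. With 1 array per group there is no spread between animals, no significance test was possible, and every difference given here compares 2 arrays. Values under log2 5.02, which is where the middle of the distribution lies when the 3 arrays are pooled and controls dropped, were treated as near background, and this level is called the floor. Of 44 members 37 were above the floor on at least 1 array, 35 of them on all 3. Spic was in the order the labels give, at 5.66 and 9.22 on the monocyte arrays (Spic-negative, then Spic-positive) and 12.23 on the macrophage array. Of genes for antigens used in the sort, Itgam (CD11b) measured 8.68, 7.38 and 5.23 and Adgre1 10.77, 10.67 and 12.50 in the same order. The monocyte receptor gene Ccr2, not a sort marker, was at 12.51 and 12.03 in monocytes and differed by -5.50 and -5.03 in macrophages. Because each array holds RNA of a whole sorted population, fewer cells of a type and less RNA per cell cannot be told apart.

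The macrophage array differed from the monocyte arrays in a limited set of carriers, in both directions, while the monocyte arrays differed little from each other. The carriers for pyrimidine nucleotides (Slc25a33), S-adenosylmethionine (Slc25a26) and NAD+ (Slc25a51) were at least 2-fold higher in macrophages than in either monocyte population. The glutamate carrier Slc25a22 and the uncoupling-protein-like Slc25a30 were at least 2-fold lower than in either. Against Spic-negative monocytes, 4 of 37 members were at least 2-fold higher and 5 lower, beside 19.6% and 11.3% of all 12375 genes above the floor (30.9% in either direction). Against Spic-positive monocytes, 6 were higher and 3 lower, beside 22.0% and 11.6% of all genes (33.6% in either direction), and after centring the arrays on their medians the split was 7 and 2. Between the monocyte populations no member of 37 passed 2-fold in either direction, beside 3.49% of all genes higher and 3.06% lower in Spic-positive monocytes (6.55% in either direction). The counts of lower members in the macrophage comparisons include Slc25a48, whose macrophage value lies under the floor, and they were 4 and 2 with values under the floor set to it. The 3 comparisons share arrays, so they are not independent of each other. The median difference of the members was -0.04 for macrophages against Spic-negative monocytes, 0.20 against Spic-positive monocytes and -0.15 between the monocyte arrays. Over all genes above the floor the same medians were 0.03, 0.10 and -0.06. The macrophage array was the highest of the 3 for 15 members (40.5%) and the lowest for 14 (37.8%), beside 45.5% and 39.9% of all genes.

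**Figure D1:**
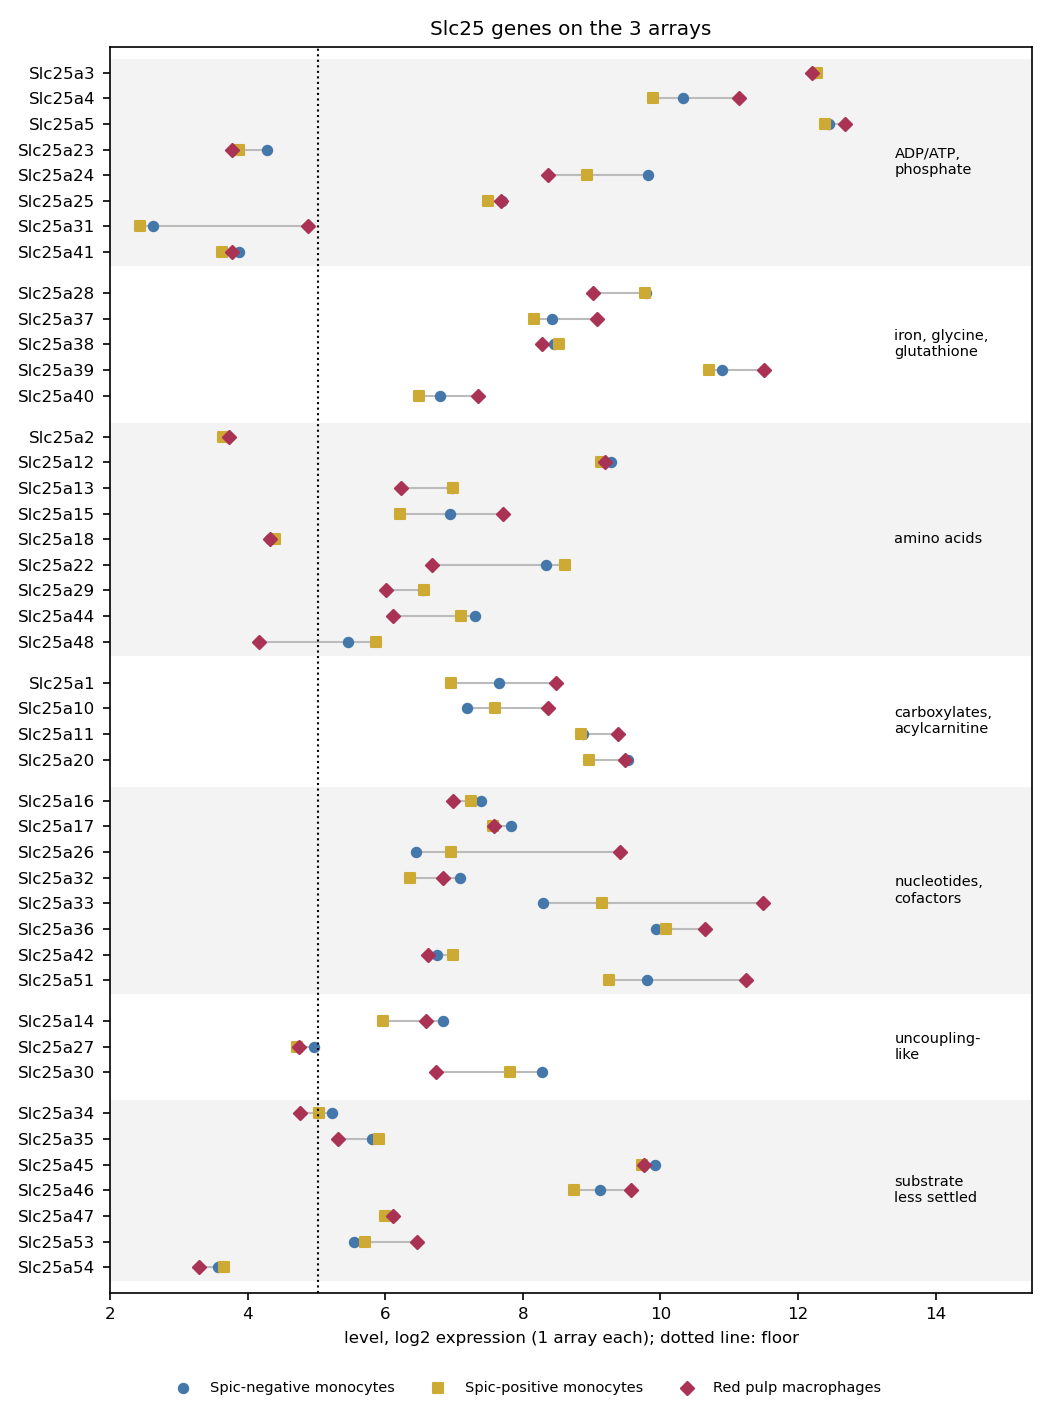
Level of each of the 44 Slc25 genes on the 3 arrays, in log2 expression, grouped by substrate; each point is 1 array and the grey line spans the 3. The dotted line is the floor at log2 5.02, below which 7 genes lie on every array; Slc25a33, Slc25a26 and Slc25a51 show the macrophage array well to the right of both monocyte arrays.

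Erythroid RNA moved with the macrophage array. Of 17 listed erythroid markers 14 had a value, and 13 of these were above the floor on the macrophage array against 5 on the Spic-negative and 6 on the Spic-positive monocyte array. Their levels ran from 5.01 to 12.08 in macrophages, from 2.74 to 9.61 in Spic-negative monocytes and from 2.60 to 8.58 in Spic-positive monocytes. The log2 of their summed linear level was 13.71, 10.17 and 9.53 in the same order. Both monocyte sums include Nfe2, whose 9.61 and 8.58 are the highest monocyte levels of the list. Nfe2 went the other way, at 8.39 in macrophages, by -1.23 from Spic-negative and -0.20 from Spic-positive monocytes. The other 12 markers above the floor on at least 1 array were at least 2-fold higher in macrophages in both comparisons. On the monocyte arrays Slc4a1 (band 3 of the red cell membrane) and Hemgn (an erythroid nuclear protein) were under the floor, at 3.86 and 2.76 in Spic-negative and 3.83 and 2.60 in Spic-positive monocytes, and they measured 11.32 and 10.35 in macrophages. All 9 measured markers of cycling cells were at least 2-fold higher in macrophages than in either monocyte population. Of 5 measured T and NK cell markers all were above the floor on the macrophage array against 1, Cd3e, on each monocyte array. In both comparisons 3 were at least 2-fold higher in macrophages, Gzma, a granzyme gene, the most, by 4.93 and 5.24. Cd3e went the other way, at 6.63 (Spic-negative), 6.57 (Spic-positive) and 6.16 (macrophages), by -0.48 and -0.41. The log2 of the summed level of the 5 markers was 7.56 and 7.52 on the Spic-negative and Spic-positive arrays and 9.85 in macrophages. Of 9 measured B cell markers 4 were at least 2-fold higher in macrophages than in Spic-negative monocytes, and 4 were lower than in Spic-positive monocytes. Of 7 measured neutrophil markers 2 were at least 2-fold higher in macrophages than in Spic-negative monocytes, Ltf (1.46) and Mpo (1.88), and none lower. Against Spic-positive monocytes 1 was higher, Ltf (1.80), and 1 lower, Elane (-1.01). The log2 of their summed level was 14.87 (Spic-negative), 15.06 (Spic-positive) and 14.93 (macrophages). Of all genes above the floor, 19.6% and 22.0% were higher and 11.3% and 11.6% lower in the 2 macrophage comparisons. The part of erythroid, cycling, T, NK and B cells and neutrophils in the differences between macrophages and monocytes below was not tested.

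Among the carriers of nucleotides and cofactors, 3 of 8 members were at least 2-fold higher in macrophages in both comparisons and none was lower. Of all genes above the floor, 19.6% and 22.0% were higher and 11.3% and 11.6% lower against Spic-negative and Spic-positive monocytes. The group's median was 0.29 against Spic-negative and 0.52 against Spic-positive monocytes, beside 0.03 and 0.10 for all genes. Slc25a33, which brings pyrimidine nucleotides into the matrix, measured 8.29 (Spic-negative), 9.15 (Spic-positive) and 11.49 (macrophages). The order was thus Spic-negative, Spic-positive, macrophage, and the macrophage array stood 9.21-fold above the first (log2 3.20) and 5.07-fold above the second (2.34). This difference from Spic-negative monocytes was the largest of any member in the 3 comparisons, and it lay between 3.19 and 3.26 under the 3 alternative normalizations, the only alternatives that could move a bright gene with 1 probe set. Its relative Slc25a36, also a pyrimidine nucleotide carrier, measured 9.93, 10.08 and 10.65, a macrophage difference of 0.72 and 0.57. Both pyrimidine carriers were thus higher in macrophages, 1 of them past 2-fold.

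Slc25a26, which imports the methyl donor S-adenosylmethionine, measured 6.44 (Spic-negative), 6.95 (Spic-positive) and 9.42 (macrophages). Both monocyte arrays were low and the macrophage array was 7.87-fold and 5.53-fold higher. Its brighter probe set can bind several transcripts, and the other one, at 5.32, 5.68 and 6.72, gave smaller differences of 1.40 and 1.04 in the same direction. Slc25a51, the carrier that supplies the matrix with NAD+, measured 9.81, 9.25 and 11.24. Here the Spic-positive array was the lowest, so the macrophage difference was smaller against Spic-negative monocytes (1.43, 2.70-fold) than against Spic-positive monocytes (1.99, 3.97-fold). Its other probe sets differed by 1.28 and 2.55 against Spic-negative and by 2.32 and 3.65 against Spic-positive monocytes. The remaining members of the group stayed within 2-fold on all arrays. They were Slc25a16 and Slc25a42, both linked to coenzyme A, Slc25a17, the carrier of the peroxisome, and Slc25a32, linked to folate and FAD, and their macrophage differences lay between -0.41 (Slc25a16) and 0.48 (Slc25a32).

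**Figure D2:**
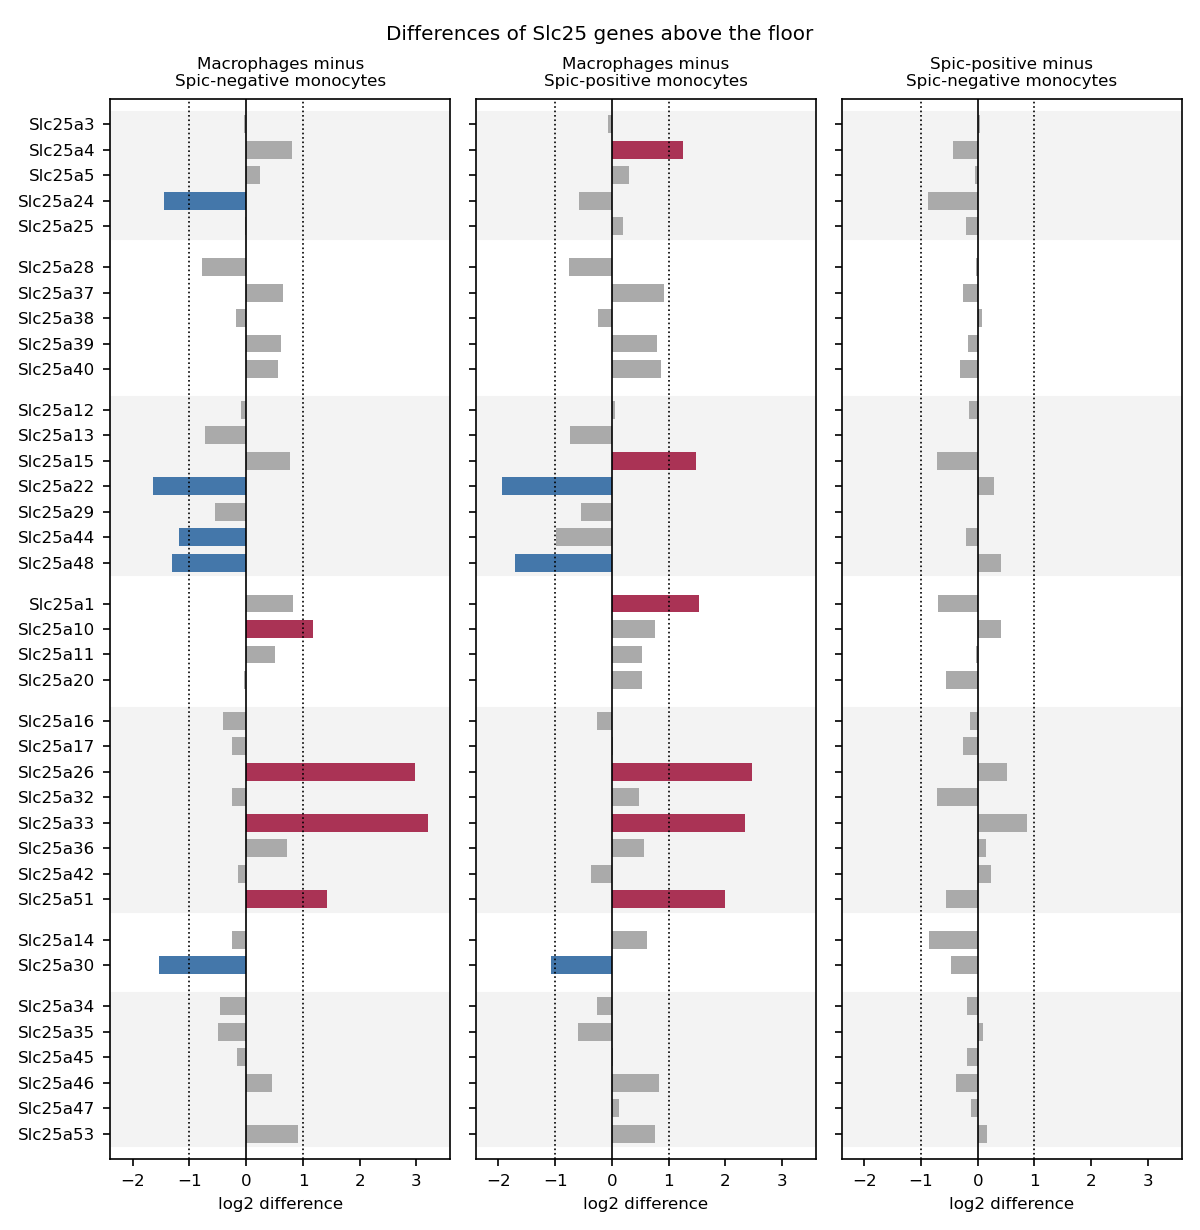
Log2 difference of the 37 Slc25 genes above the floor in the 3 comparisons, grouped by substrate as in the plot of levels; bars are differences between single arrays, red where at least 2-fold higher, blue where at least 2-fold lower, and dotted lines mark 2-fold. The monocyte comparison on the right has no coloured bar, while the macrophage comparisons have 9 each.

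The DNA before the start of the genes that differed is shown to set carriers higher in macrophages beside carriers lower there. Windows of 250 bases before the annotated start came from RefSeq (mouse build GRCm38.p6), and 34 of 44 members had one. The first window listed was used for each gene. Capitals mark matches, on either strand, to the GC box GGGCGG, the box CCAAT, the E-box CACGTG, the GATA sites AGATAA or TGATAA, the PU.1 and Spic core GAGGAA or the AP-1 and BACH1 core TGAGTCA. No motif of this list contains another. The first 2 sequences belong to carriers at least 2-fold higher in macrophages than in both monocyte populations (Slc25a33) or than in Spic-positive monocytes alone (Slc25a1), the other 3 to carriers lower in macrophages. The window of Slc25a33 lies at chr4:149774268-149774517 (minus strand), that of Slc25a1 at chr16:17928220-17928469 (minus strand), that of Slc25a22 at chr7:141437875-141438124 (minus strand), that of Slc25a24 at chr3:109122899-109123148 (plus strand) and that of Slc25a30 at chr14:75787038-75787287 (minus strand). All are written 5′ to 3′ along the gene.
Slc25a33: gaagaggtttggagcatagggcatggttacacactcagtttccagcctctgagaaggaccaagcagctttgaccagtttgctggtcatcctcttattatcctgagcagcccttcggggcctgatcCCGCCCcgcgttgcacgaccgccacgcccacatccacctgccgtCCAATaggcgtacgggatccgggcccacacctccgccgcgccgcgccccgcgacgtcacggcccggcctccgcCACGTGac
Slc25a1: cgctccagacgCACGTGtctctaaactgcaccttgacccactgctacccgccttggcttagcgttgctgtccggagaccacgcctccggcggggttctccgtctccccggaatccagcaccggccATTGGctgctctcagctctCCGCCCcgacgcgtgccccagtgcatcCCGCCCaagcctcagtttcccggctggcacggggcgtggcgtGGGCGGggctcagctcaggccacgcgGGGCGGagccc
Slc25a22: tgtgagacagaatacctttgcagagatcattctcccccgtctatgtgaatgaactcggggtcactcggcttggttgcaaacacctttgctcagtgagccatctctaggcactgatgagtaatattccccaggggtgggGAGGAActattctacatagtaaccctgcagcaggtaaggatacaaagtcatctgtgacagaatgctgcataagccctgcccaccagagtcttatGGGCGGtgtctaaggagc
Slc25a24: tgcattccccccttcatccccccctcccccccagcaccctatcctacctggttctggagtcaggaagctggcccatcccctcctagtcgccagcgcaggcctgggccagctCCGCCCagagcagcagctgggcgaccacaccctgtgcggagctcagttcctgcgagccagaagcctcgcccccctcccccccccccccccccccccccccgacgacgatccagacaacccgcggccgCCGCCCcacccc
Slc25a30: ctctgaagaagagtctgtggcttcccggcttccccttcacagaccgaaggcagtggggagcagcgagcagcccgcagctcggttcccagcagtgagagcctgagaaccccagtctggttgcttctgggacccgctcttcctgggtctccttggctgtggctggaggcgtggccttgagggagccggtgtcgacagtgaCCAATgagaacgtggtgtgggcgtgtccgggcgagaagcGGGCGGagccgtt

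The windows of Slc25a33 and Slc25a1 each held 1 E-box, 1 CCAAT box and GC boxes, 1 in Slc25a33 and 4 in Slc25a1. Slc25a24 held 2 GC boxes, Slc25a30 a GC box with a CCAAT box, and Slc25a22 a GC box with 1 PU.1 and Spic core. RefSeq lists 3 starts for Slc25a22, of which the first listed is shown. Over the 34 members with a window, the GC box was found in 24 (70.6%), the CCAAT box in 15 (44.1%) and the E-box in 6 (17.6%). Among the 10001 genes above the floor with a window the shares were 57.3%, 35.9% and 8.38%, and among all 27025 windows 32.9%, 34.5% and 6.05%. The PU.1 and Spic core was in 8 members (23.5%), beside 22.7% of genes above the floor and 23.1% of all windows. AGATAA was in 2 members, TGATAA in 1 and TGAGTCA in 1, beside 6.11%, 3.74% and 3.22% of genes above the floor and 10.3%, 8.16% and 4.43% of all windows. Of 5 carriers at least 2-fold higher in macrophages in either comparison and with a window, 2 held the E-box, and of 4 lower ones none did. For the PU.1 and Spic core the counts were none of 5 and 2 of 4. Of the 5, Slc25a33 alone was higher in both comparisons. Slc25a26 and Slc25a51, also higher in both, and the lower Slc25a44 had no window and are not in these counts. Among windows not shown, Slc25a10 held no match, Slc25a15 2 GC boxes, Slc25a4 2 CCAAT boxes, and the lower Slc25a48 2 GC boxes and 1 PU.1 and Spic core. Both E-box windows of the higher carriers are among those printed. A match is a run of letters and not a measured site, and these letters can occur outside the window too.

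Carriers of ADP, ATP and phosphate differed little, apart from Slc25a24 and Slc25a4. The phosphate carrier Slc25a3 measured 12.24 (Spic-negative), 12.28 (Spic-positive) and 12.20 (macrophages). The ADP/ATP carrier Slc25a5, the form that dividing cells use, measured 12.44, 12.39 and 12.68. Both genes thus lay within log2 0.29 over the 3 arrays on their brightest probe sets. Slc25a4, the ADP/ATP carrier best known from heart and muscle, measured 10.33, 9.89 and 11.15. Its macrophage difference of 1.26 (2.39-fold) from Spic-positive monocytes passed 2-fold, and that of 0.82 from Spic-negative monocytes did not. Under the mean or median of its probe sets the former was 0.34 or 0.49, but both take in a probe set under the floor on every array. Its further probe sets above the floor gave 0.54 and 0.44 against Spic-positive monocytes.

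Slc25a24, a calcium-regulated carrier that exchanges ATP-Mg for phosphate, measured 9.81 (Spic-negative), 8.93 (Spic-positive) and 8.36 (macrophages). The macrophage array was 2.74-fold lower than the Spic-negative array (-1.46), and the Spic-positive array lay between the others at -0.88 from Spic-negative. The second probe set of Slc25a24, at 6.53, 5.07 and 4.30, gave the same order, with -1.46 between the monocyte arrays, but its macrophage value is under the floor and its macrophage difference has no exact size. Slc25a25, of the same calcium-regulated type, measured 7.70, 7.49 and 7.68, so it did not share that order. Slc25a23 and Slc25a41, also of this type, were under the floor on all 3 arrays. So was Slc25a31, an ADP/ATP carrier known from germ cells, although its macrophage value of 4.87 was above its monocyte values of 2.63 and 2.43.

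Carriers tied to iron, glycine and glutathione stayed within 2-fold on the 3 arrays on their brightest probe sets. Most genes above the floor did so too in each comparison. Those that differed by 2-fold or more were 30.9% against Spic-negative and 33.6% against Spic-positive monocytes, and 6.55% between the monocyte arrays. Slc25a37 (mitoferrin 1), which imports iron for heme synthesis in developing red cells, measured 8.43 (Spic-negative), 8.17 (Spic-positive) and 9.07 (macrophages). Slc25a28 (mitoferrin 2), the mitoferrin found in most tissues, measured 9.80, 9.77 and 9.01. The mitoferrins thus differed in opposite directions, with macrophage differences of 0.64 and 0.91 for Slc25a37 and of -0.78 and -0.76 for Slc25a28 against Spic-negative and Spic-positive monocytes. Slc25a38, which supplies glycine for the first step of heme synthesis, measured 8.46, 8.53 and 8.28. Slc25a39, an importer of glutathione, measured 10.89, 10.71 and 11.51, and its relative Slc25a40 measured 6.79, 6.48 and 7.35. Both glutathione carriers were highest in macrophages, by 0.62 and 0.56 over Spic-negative monocytes. A further probe set of Slc25a39, at 7.31, 7.31 and 8.48, passed 2-fold with a difference of 1.17 from each monocyte array. The median of the 5 genes was 0.56 against Spic-negative and 0.79 against Spic-positive monocytes, beside 0.03 and 0.10 for all genes.

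Values of heme and iron genes around these carriers were taken from the same arrays. Of 12 measured partners in heme synthesis, iron-sulfur cluster assembly and iron uptake, 9 were at least 2-fold higher in macrophages than in Spic-negative monocytes and none was lower. Among all genes above the floor the shares were 19.6% higher and 11.3% lower. Against Spic-positive monocytes 7 were higher and 1, the heme synthesis enzyme gene Ppox, was lower (-1.11), beside 22.0% and 11.6% of all genes. Alas2, the erythroid form of the first heme enzyme, measured 4.69, 5.51 and 10.89 on the Spic-negative, Spic-positive and macrophage arrays. Fech, which inserts iron into heme, was higher in macrophages by 1.52 and 2.11, Glrx5, an iron-sulfur assembly gene, by 1.97 and 2.47, and Tmem14c, a carrier of heme precursors outside the Slc25 family, by 1.23 and 1.15.

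Among 7 amino acid carriers above the floor, 3 were at least 2-fold lower and none higher in macrophages than in Spic-negative monocytes, beside the 11.3% of all genes that were lower. Against Spic-positive monocytes 2 were lower and 1 higher, beside 11.6% and 22.0% of all genes. The medians were -0.73 and -0.75, beside 0.03 and 0.10 for all genes. Of the lower genes, Slc25a22 alone had a macrophage value above the floor and passed 2-fold under all 9 alternatives run. Slc25a22, a glutamate carrier, measured 8.33 (Spic-negative), 8.62 (Spic-positive) and 6.68 (macrophages). Macrophages were 3.13-fold and 3.82-fold lower, and under the 3 alternative normalizations, the only ones that could move it, the log2 differences were -1.72 to -1.60 and -2.18 to -1.81. Slc25a44, which carries branched-chain amino acids, measured 7.30, 7.10 and 6.11. Its macrophage differences of -1.19 and -0.99 lay on either side of 2-fold, and the former was -0.72 with the mean and -0.98 with the median of its probe sets. The 3 probe sets of Slc25a44 disagreed in sign against Spic-positive monocytes, from -1.56 to 0.59. They also disagreed between the monocyte arrays, from -0.83 to 0.84. Slc25a48, linked to choline and grouped here with the amino acid carriers, measured 5.46, 5.86 and 4.16. The macrophage value lies under the floor, and with it set to the floor the differences were -0.44 and -0.84 in place of -1.30 and -1.71.

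The aspartate-glutamate carriers, which pass reducing power from the cytosol to the matrix, differed from each other on their brightest probe sets. Slc25a12 (aralar) measured 9.29, 9.14 and 9.19 and Slc25a13 (citrin) 6.97, 6.98 and 6.23. On these, citrin was lower in macrophages by less than 2-fold and aralar was level. Further probe sets of Slc25a12 differed by -0.54 and -0.99 from Spic-negative and by -0.04 and -1.38 from Spic-positive monocytes. Their macrophage values, 4.83 and 4.10, are under the floor, so these differences have no exact size. Slc25a29, a carrier of basic amino acids, measured 6.55, 6.56 and 6.01. Slc25a15, the ornithine carrier of the urea cycle, went the other way, at 6.94, 6.22 and 7.71. It was 2.80-fold higher in macrophages than in Spic-positive monocytes (1.49) and 1.70-fold higher than in Spic-negative monocytes (0.77). The first difference was 0.77 with the mean or median of its probe sets, but the other probe set was under the floor on every array. Slc25a2 and Slc25a18 lay under the floor on all arrays.

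Carriers of carboxylic acids and acylcarnitine were higher in macrophages or level. In each macrophage comparison 1 of the 4 was at least 2-fold higher, beside 19.6% and 22.0% of all genes. None was 2-fold lower, beside 11.3% and 11.6% of all genes. With 4 genes these counts are close to the shares of all genes. Slc25a1, which exports citrate for fatty acid and sterol synthesis, measured 7.65 (Spic-negative), 6.95 (Spic-positive) and 8.48 (macrophages). The Spic-positive array was the lowest, and macrophages were 2.89-fold above it (1.53) and 1.78-fold above Spic-negative monocytes (0.83). Slc25a10, the dicarboxylate carrier, measured 7.18, 7.59 and 8.36, with the Spic-positive array between the others. Its difference of 1.17 from Spic-negative monocytes was 0.82 with the mean or median of its probe sets. Slc25a11, the oxoglutarate-malate carrier, measured 8.87, 8.84 and 9.38, and Slc25a20, which brings acylcarnitines in for fat oxidation, 9.52, 8.96 and 9.48. For the 4 genes the medians were 0.67 and 0.65, beside 0.03 and 0.10 for all genes.

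Of the carriers that resemble uncoupling proteins, Slc25a30 was lower in macrophages. It measured 8.28 (Spic-negative), 7.81 (Spic-positive) and 6.74 (macrophages), so the Spic-positive array was again between the others. Macrophages were 2.91-fold lower than Spic-negative (-1.54) and 2.10-fold lower than Spic-positive monocytes (-1.07). The second difference was -0.95 with centred arrays and -0.90 with the mean of its probe sets. That mean takes in a probe set under the floor on every array. Slc25a14 measured 6.83, 5.97 and 6.59, and Slc25a27 was under the floor. The 7 members whose substrates are less settled all stayed within 2-fold or under the floor. Of all genes above the floor, 30.9% and 33.6% differed by 2-fold or more in the macrophage comparisons. Slc25a46, a protein of the outer membrane with a part in mitochondrial shape, measured 9.13, 8.74 and 9.57, and Slc25a53 5.54, 5.70 and 6.46. Slc25a34, Slc25a35, Slc25a45 and Slc25a47 had macrophage differences between -0.60 and 0.12. Slc25a54 lay under the floor.

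Spic-positive monocytes were compared with Spic-negative monocytes to see how carriers differ within the monocyte gate. All 37 members lay between -0.88 and 0.86. The members nearest to 2-fold were Slc25a24 (-0.88), Slc25a14 (-0.86) and Slc25a33 (0.86), and Slc25a33 passed 2-fold after a second quantile normalization (1.01) and after cyclic loess (1.02). With the mean or the median of probe sets Slc25a24 was 2-fold lower (-1.17), and with the median so was Slc25a51 (-1.04). At a smaller size of log2 0.50, 2 members were higher, Slc25a33 and Slc25a26 (0.51), beside 13.3% of all genes. At the same size 7 were lower, beside 16.4% of all genes: Slc25a24, Slc25a14, Slc25a32 (-0.73), Slc25a15 (-0.72), Slc25a1 (-0.70), Slc25a20 (-0.56) and Slc25a51 (-0.56). The counts were 3 and 5 after cyclic loess. The Spic-positive array was the lowest of the 3 for 18 of 37 members (48.6%), beside 34.7% of all genes, and for 13 after cyclic loess (35.1%, beside 29.1%).

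Several measures moved with the Spic-positive array. B cell markers were at least 2-fold higher there than in Spic-negative monocytes in 8 of 9 measured genes, and the log2 of their summed level was 11.26 against 9.18, and 10.86 in macrophages. All 9 were above the floor on the Spic-positive array and 5 on the Spic-negative array. The 18 hybridization controls, added in fixed amounts, were all brighter on it, with a median difference of 2.16 from the Spic-negative array. The Gapdh control for the 3′ end exceeded that for the 5′ end by 2.25, against 0.48 in Spic-negative monocytes and 1.61 in macrophages. For beta-actin the same quantity was lowest on the Spic-positive array, at 0.57, against 0.74 and 1.13. All 9 cycling markers were higher on the Spic-positive than on the Spic-negative array, 4 of them at least 2-fold, with a median of 0.82. Of 7 neutrophil markers 1 was at least 2-fold higher, Mpo, the myeloperoxidase gene of granulocyte and monocyte precursors, by 2.86. The part of these measures in the differences between any of the 3 arrays was not tested.

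Further probe sets gave a second reading of the same RNA for 19 members. For macrophages against Spic-negative monocytes, all probe sets above the floor had the same sign in 15 members, against 13 for macrophages against Spic-positive monocytes and 11 between the monocyte arrays. Slc25a51 had 3 probe sets and Slc25a26 2, each at least 2-fold higher in macrophages in both comparisons. Slc25a30 had 4 above the floor, all lower in macrophages, with differences of -1.74 to -0.36 from Spic-negative monocytes. Slc25a5 had 8 that disagreed, from -0.86 to 0.46 and from -1.35 to 1.13 in the macrophage comparisons. Slc25a5 has near-identical copies in the genome, so its value is uncertain. A further probe set of Slc25a3, at 7.45, 5.95 and 6.49, differed by -1.50 between the monocyte arrays (Spic-positive lower), where the brightest gave 0.04. Slc25a33 and Slc25a22 each had 1 probe set, so nothing on these arrays repeats their values.

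**Figure D3:**
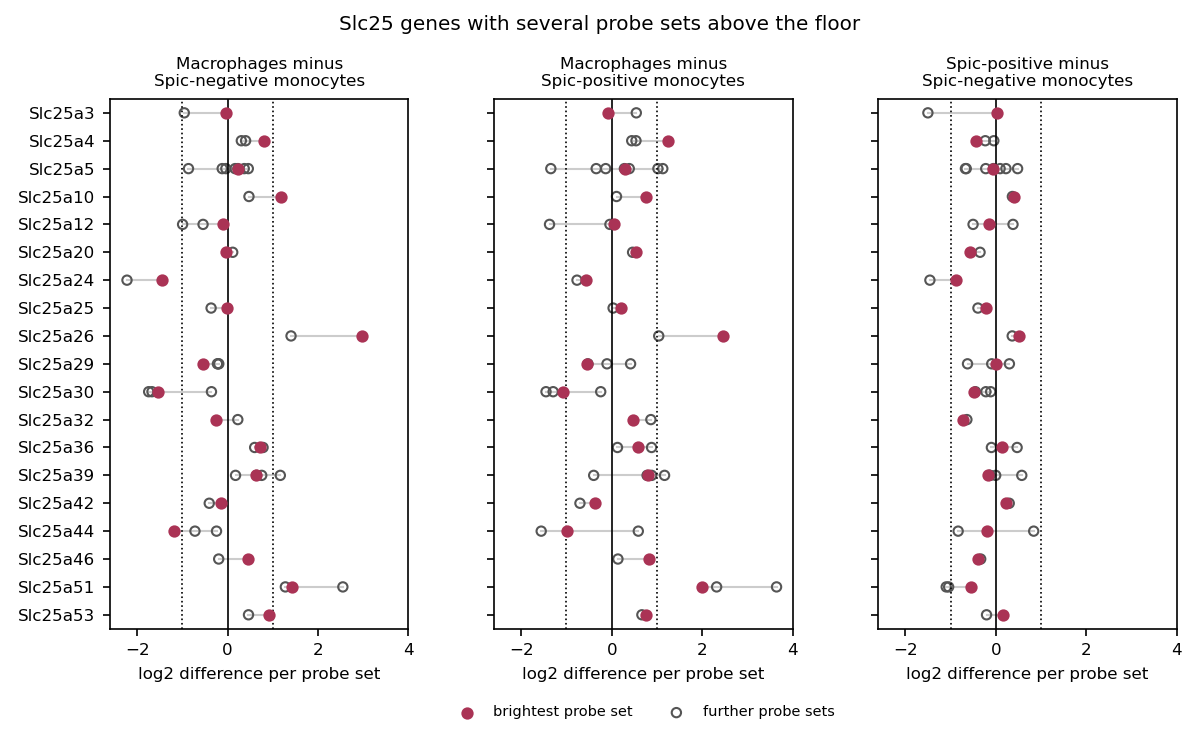
Log2 difference of every probe set above the floor for the 19 Slc25 genes with more than 1, in the 3 comparisons; filled points are the probe sets used for the gene's value, open points the further ones, and grey lines span each gene. Slc25a51, Slc25a26 and Slc25a30 keep all points on one side of 0 in the macrophage comparisons, while the 8 points of Slc25a5 lie on both sides.

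Other parts of the mitochondrial transport system were set beside the family. Of 5 carriers known by other symbols, the uncoupling protein gene Ucp2 had no value here, Ucp1 was under the floor and 3 were above it. Of these 3, 1 was at least 2-fold higher than in Spic-negative and 2 than in Spic-positive monocytes, beside 19.6% and 22.0% of all genes. Mtch2, a carrier-like insertase of the outer membrane, was higher in macrophages by 0.92 and 1.40, and Ucp3, an uncoupling protein, by 1.28 and 1.26. The monocyte values of Ucp3 lay under the floor. Of 11 genes that import carriers into mitochondria, 1 was at least 2-fold higher than in Spic-negative monocytes, the small chaperone gene Timm8a1 (1.54), and 1 lower, the chaperone gene Timm10b (-2.20). Against Spic-positive monocytes 3 were higher, Timm8a1 (1.86), the carrier receptor gene Tomm70a (1.70) and Timm22, the pore that inserts carriers (1.09), and Timm10b was lower (-1.99). The shares of all genes were 19.6% higher and 11.3% lower against Spic-negative monocytes, and 22.0% and 11.6% against Spic-positive monocytes. The medians of these 11 genes were 0.39 and 0.60, beside 0.03 and 0.10 for all genes.

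Among 17 other transporters of the mitochondrial membranes, 5 were at least 2-fold higher and 3 lower than in Spic-negative monocytes, and 7 and 2 against Spic-positive monocytes. The first pair is 29.4% and 17.6%, beside 19.6% and 11.3% of all genes. The second pair is 41.2% and 11.8%, beside 22.0% and 11.6%. Abcb6, a porphyrin transporter, was the highest of them by difference, at 5.51, 5.77 and 8.99 on the Spic-negative, Spic-positive and macrophage arrays. Sfxn1, a serine carrier, was higher in macrophages by 1.61 and 1.13, and Cpt2, which frees acyl groups from carnitine behind Slc25a20, by 1.59 and 1.57. The calcium uniporter gene Mcu was lower by 1.47 and 1.43 on the log2 scale. Cpt1a, which makes acylcarnitine on the outer membrane, differed by -1.20 and -0.80, and the pyruvate carrier gene Mpc1 by -0.80 and -0.75. Of the acylcarnitine route, Cpt1a was thus lower, Slc25a20 level against Spic-negative monocytes (-0.04) and Cpt2 higher in macrophages. The list medians of 0.63 and 0.75 lay above those of the Slc25 family, and no test of that difference could be made with 1 array per group.

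**Figure D4:**
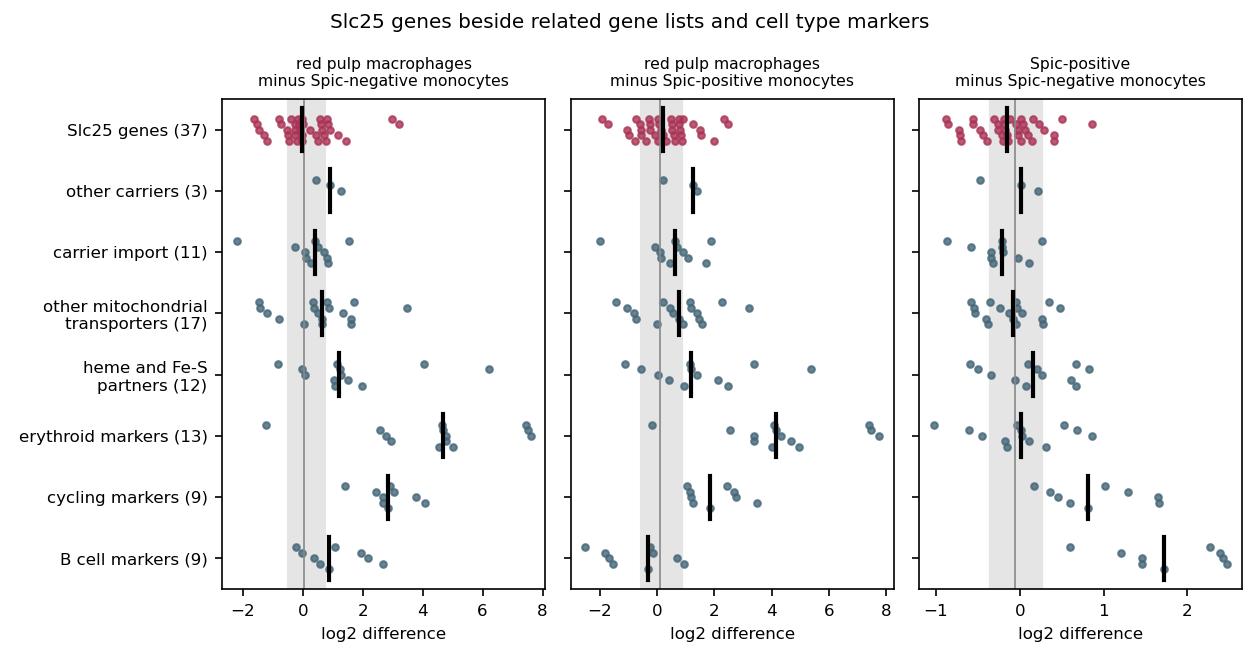
Log2 differences of the Slc25 genes above the floor (red) beside related gene lists and markers of other cells in the 3 comparisons; each point is a gene, black bars are list medians, the grey line and band are the median and the middle of the distribution (lower to upper quartile) of all genes above the floor, and numbers in brackets count genes. Slc25 genes lie around the median of all genes, while cycling markers and 12 of 13 erythroid markers lie far to the right in both macrophage comparisons and B cell markers in the monocyte comparison.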

How the data were processed

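Affymetrix probe sets were measured on 3 arrays, 1 per group. Per the labels' protocols, biotinylated cRNA came from a 2-cycle kit. The deposited values are log2 expression, made by the authors with RMA per the submitters' processing notes (no version is stated); the log2 scale was inferred from the values (1.82 to 14.50). RMA normalizes arrays to each other, so differences in total RNA per cell are not visible; the deposited array medians still differed (5.01, 5.08 and 4.96 for Spic-negative monocytes, Spic-positive monocytes and macrophages).

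Of 45101 probe sets, 64 controls were left out; 34945 had 1 gene symbol, 932 several and 9160 none. Symbols were updated through gene identifiers (GRCm38.p6 table). A further probe set naming Slc25a37 with another gene was not used. The number of arrays limits the precision. Values in full were given for members at least 2-fold different, for the ADP/ATP, phosphate and mitoferrin members, and to close a role group; list genes could be named. Members and lists were chosen with earlier results of these data known. Alternatives covered probe set choice, normalization and floor. Python 3.11.15, pandas 2.3.3 and limma 3.58.1 (R 4.3.3) were used, tested on simulated data.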

Additional observations from a re-analysis of the deposited data

How the results depend on the processing

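Of the counts of Slc25 genes past 2-fold and the medians of the family, 47 counts and 17 medians stayed close over 9 alternatives (counts within 1.5 times, medians within 0.1 log2 with the same sign), while 7 counts and 6 medians moved further and 4 medians turned sign. No member that passed 2-fold turned its direction in any of the alternatives that gave it a value. The family median for macrophages minus Spic-negative monocytes, -0.04, turned to 0.0023 with the mean of probe sets, 0.0081 with centred arrays, 0.0061 with cyclic loess and 0.24 with the floor at the 75th percentile. The median of all genes moved from 0.03 to -0.02, 0.09, 0.12 and 0.13 in the same order. For macrophages minus Spic-positive monocytes the family median was 0.32 with centred arrays and 0.028 after a second quantile normalization. It was 0.097 without a floor and 0.53 with the floor at the 75th percentile. These 4 alternatives also moved the median of all genes, from 0.10 to 0.23, -0.03, -0.09 and 0.29. Between the monocyte arrays the family median was -0.044 after the second normalization and -0.036 after cyclic loess, and each of these gave 1 gene 2-fold higher. There the median of all genes moved from -0.06 to 0.03 and 0.04. Lower genes against Spic-negative monocytes numbered 3 with the mean and 3 with the median of probe sets, against Spic-positive monocytes 1 with the mean, and between the monocyte arrays 1 with the mean and 2 with the median. Setting values under the floor to the floor was chosen after seeing the data. No paired analysis was possible because each group has 1 array, and no array could be left out.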
